A study of Mus musculus with 31 samples.

Results

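The proteasome is the large protease that degrades ubiquitin-tagged proteins, and its subunit genes were followed here in eyes of mouse embryos at day 13.5 that lack Ftx, an X-linked long noncoding RNA. The study asked how loss of Ftx changes gene expression in the female and male eye. Members were chosen by name: array probes whose gene name starts with Psma, Psmb, Psmc, Psmd, Psme or Psmf and a number, with a mean normalized signal above 500 over the WT eyes. By name, 57 probes of 45 genes matched, and 51 probes of 41 genes lay above the minimum, of 14063 probes in all. One of them, Psmc3ip, shares the name pattern but is not a proteasome subunit. The rule counts it among the 51, and without it 36 of 50 female changes were below 0.2 in size on the log2 scale, the median was -0.02, and the calls were the same in number. The lowest members above the minimum were Psmd10 (A_55_P2180884, mean WT signal 638.9), Psmd9 (A_51_P251587, 644.4) and Psmf1 (647.9), and the highest below it were Psmb9 (59.7), Psmb8 (49.9) and another Psme2 probe (40.5).

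RNA came from 11 eyes of Ftx-/- females, 3 of Ftx-/Y males and, as controls, 3 each of WT females and WT males, with the pigmented epithelium cut away. The targeted line was derived from C57BL/6N ES cells and kept on that strain, its allele also no longer expressed miR-374 and miR-421, which lie within Ftx, and the study took eyes of normal appearance. Of the 1-colour arrays analysed here there was 1 per eye, except that the Ftx-/- eyes had 2 each, which were averaged. The study describes duplicate arrays throughout and a further WT female eye, which are not analysed here. The WT females are numbered 1, 2 and 4 in the labels.

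The 31 arrays lie on 4 slides. Slide 1 carried the 6 WT eyes with 1 Ftx-/Y eye, slide 2 the remaining Ftx-/Y eyes with Ftx-/- eyes 1 to 3, and slides 3 and 4 Ftx-/- eyes alone. WT and mutant females never shared a slide, so genotype and slide cannot be told apart within females. Median array intensity ran from 34.21 to 74.99, and 48.2% to 70.4% of probes were well above background. The main Ftx probe passed background on all WT arrays (6 of 6), on none from Ftx-/Y eyes and on 9 of 22 from Ftx-/- eyes. All 12 lens markers and all 10 retinal progenitor markers listed were above the minimum, and 3 of 8 pigment markers on the array were too (Dct, Pmel and Mitf), while Rpe65 was on no array well above background. The summed signal of the pigment markers was 5176 to 7558 in WT females and 3336 to 33970 in Ftx-/- females. All 51 members were well above background on every array and saturated on none.

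The proteasome has a 20S core made of alpha and beta rings, in which Psmb5, Psmb6 and Psmb7 carry the protease sites. In cells exposed to interferon these are replaced by Psmb8, Psmb9 and Psmb10, which form the immunoproteasome. A 19S cap of Psmc ATPases and Psmd subunits recognises and unfolds the substrate, and the Psme activators can take the place of the cap. Most subunits are needed in fixed proportion, and their genes are active in nearly every tissue.

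Most proteasome probes had close to the same signal in Ftx-/- and WT female eyes. The log2 fold change was below 0.2 in size for 37 of 51 probes (72.5%) and for 52.4% of all probes tested. Its median was -0.02, and 23 probes were on the positive side. With limma and an adjusted p under 0.05 over all probes tested, 5 probes were higher (9.8%) and 8 lower (15.7%), while 17.3% of all probes tested were higher and 17.8% lower. The median over all probes tested was -0.01. Of the 41 genes, Psme3, Psma4, Psmd5, Psma5 and Psmc2 rose on at least 1 probe, and Psmb5, Psme4, Psmd2, Psme1, Psmd7, Psmd13, Psmc3 and Psmd6 fell on at least 1. With the slide as a fixed term, in which Ftx-/Y eyes alone link slides 1 and 2, no member was called in either direction. Of all probes, 1 was called higher and 10 lower. In that fit, 11 of 51 members and 2405 of 14063 probes had an unadjusted p under 0.05.

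**Figure D1:**
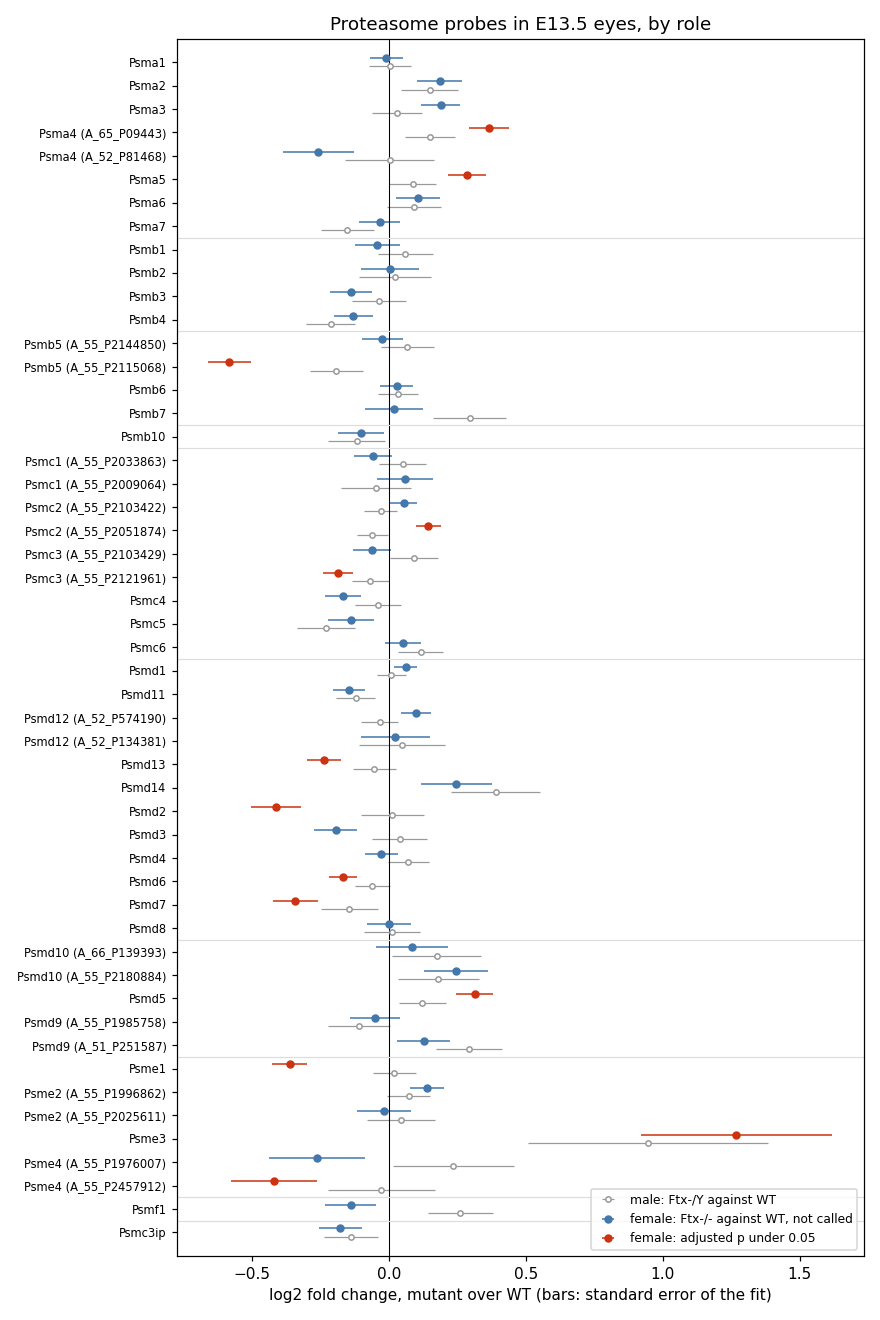
Log2 fold change of each of the 51 proteasome probes, mutant over WT, for females (filled points) and males (open points), with the standard error of the fit as bars and grey lines between roles. Of the female changes, 13 are marked as called, from -0.58 for one Psmb5 probe to 1.27 for Psme3, and 37 probes lie within 0.2 of 0.

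Of the catalytic core subunits, one probe for Psmb5, the chymotrypsin-like subunit, had the largest fall of any member. On probe A_55_P2115068 the log2 signal was 14.35, 14.44 and 14.47 in WT females and had a lowest value of 13.70, a median of 13.81 and a highest of 13.97 in Ftx-/- females. All 11 mutant eyes lay below all WT female eyes. The log2 fold change was -0.58 (SE 0.08, limma adjusted p = 5.4e-05). The other Psmb5 probe, A_55_P2144850, gave 16.60, 16.62 and 16.65 in WT females and 16.28, 16.65 and 16.75 as lowest, median and highest in Ftx-/- females. These groups overlapped, and the log2 fold change was -0.02 (SE 0.08, adjusted p = 0.83).

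Both Psmb5 probes lie on chromosome 14 (mm9, minus strand), and the first 30 bases of each 60-base probe are shown because the pair gave different answers for a single gene.
Psmb5 A_55_P2144850 (chr14:55232957-55233016): gcggttgtctgcatctctaggtgggtctcc
Psmb5 A_55_P2115068 (chr14:55233161-55233220): tactcctatgacctgaaagtggaggaggcc
The probe that fell has 55% G or C bases and the other 43.3%. The trypsin-like subunit Psmb7 changed by 0.02 (SE 0.11, adjusted p = 0.92) and the caspase-like subunit Psmb6 by 0.03 (SE 0.06, adjusted p = 0.75), with Ftx-/- eyes on both sides of the WT range for each.

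In the alpha ring, which gates entry to the core, 2 of 8 probes rose and none fell, where 17.3% of all probes rose and 17.8% fell. The same shares stand behind the counts of the other groups of subunits. Psma5 measured 14.03, 14.13 and 14.29 in WT females and from 14.21 to 14.62 with a median of 14.43 in Ftx-/- females. Of the 11 mutant eyes, 10 were above all WT female eyes, and the change was 0.29 (SE 0.07, adjusted p = 0.0039). The Psma5 probe holds a run of 10 bases of TG or CA repeat, and the Psme3 probe described below one of 13. The part of the repeat in the Psma5 value was not tested. Psma4 had probes that moved apart, shown here for that reason (mm9, chromosome 9, plus strand, first 30 bases).
Psma4 A_65_P09443 (chr9:54804685-54805444): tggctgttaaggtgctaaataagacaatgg
Psma4 A_52_P81468 (chr9:54802741-54804087): tgtgtgatatcaaacaggcgtacacacagt
The first gave 12.90, 12.99 and 13.08 in WT females and 13.20, 13.33 and 13.50 as lowest, median and highest in Ftx-/- females. Every mutant eye was above every WT female eye, and it rose by 0.37 (SE 0.07, adjusted p = 0.0011). The second gave 13.07, 13.12 and 13.16 in WT females and ranged from 12.52 to 13.26 with a median of 12.86 in Ftx-/- females. Its groups overlapped and its change was -0.26 (SE 0.13, adjusted p = 0.13). Both intervals are longer than the 60 bases of a probe, and the probes have 38.3% and 45% G or C bases.

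**Figure D2:**
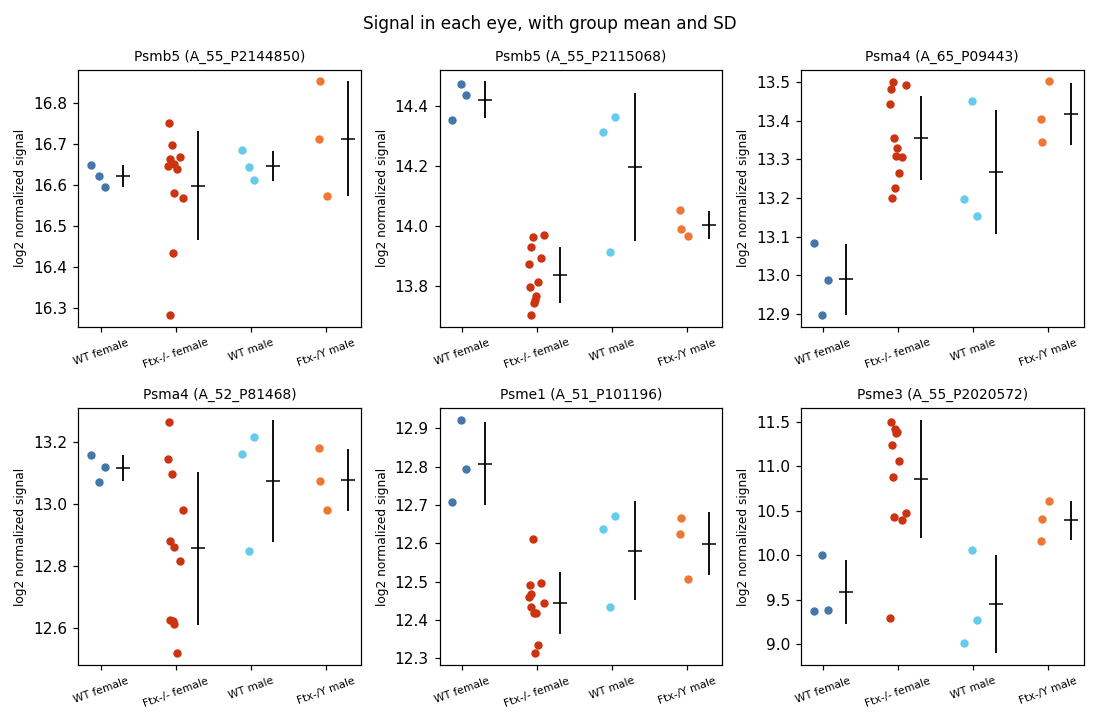
Log2 normalized signal of 6 probes in each eye, by group, with the group mean and SD as a bar beside the points (3 eyes a group, 11 Ftx-/- females). On Psmb5 A_55_P2115068 and Psme1 all Ftx-/- eyes lie below all WT female eyes and on Psma4 A_65_P09443 all lie above them, while the other Psmb5 and Psma4 probes overlap.

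Among the other beta subunits, Psmb1, Psmb2, Psmb3 and Psmb4 had 0 of 4 probes called, with changes from -0.14 to 0.00. Of the 19S ATPases, 1 of 9 probes rose and 1 fell, both by small amounts. Psmc2 (A_55_P2051874) went from 14.46, 14.47 and 14.49 in WT females to between 14.53 and 14.68 in Ftx-/- females, a rise of 0.14 (SE 0.05, adjusted p = 0.02). Psmc3 (A_55_P2121961) went from 14.47, 14.51 and 14.52 to between 14.17 and 14.44, a change of -0.19 (SE 0.05, adjusted p = 0.013). The groups did not overlap for either probe, and the second probes of these genes changed by 0.05 (Psmc2) and -0.06 (Psmc3), with adjusted p of 0.41 and 0.51.

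Of the non-ATPase subunits of the 19S cap, 4 of 12 probes fell and none rose, where 17.8% of all probes fell. Psmd2, a scaffold subunit of the base, had 14.36, 14.63 and 14.73 in WT females against 14.02, 14.12 and 14.35 as lowest, median and highest in Ftx-/- females. All mutant eyes lay below the WT range, and the change was -0.41 (SE 0.09, adjusted p = 0.0022). Psmd7, the partner of the deubiquitinase Psmd14 in the lid, changed by -0.34 (SE 0.08, adjusted p = 0.004), from 13.23, 13.24 and 13.41 to a range of 12.78 to 13.10. The lid subunits Psmd13 and Psmd6 fell by 0.24 and 0.17 on the log2 scale (adjusted p = 0.0063 and 0.017). All 11 mutant eyes were below all WT female eyes for these 4 genes, and the Psmd6 and Psmd13 calls were kept in 14 and 20 of 27 alternative analyses. Psmd14 itself had a change of 0.24 (SE 0.13, adjusted p = 0.15).

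Of the chaperones that assemble the 19S base, Psmd5 rose by 0.31 (SE 0.07, adjusted p = 0.0021), from 10.70, 10.80 and 10.86 in WT females to between 10.91 and 11.22 in Ftx-/- females, without overlap. Psmd10, known as gankyrin, is the X-linked member. Its probe A_66_P139393 gave 9.75, 9.97 and 10.02 in WT females and 9.70, 9.96 and 10.45 as lowest, median and highest in Ftx-/- females, and its change was 0.08 (SE 0.13, adjusted p = 0.65). Its other probe, A_55_P2180884, changed by 0.24 (SE 0.12, adjusted p = 0.12). The groups overlapped on both probes.

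The activators, which open the core without the 19S cap, moved in different directions. Psme1, the alpha subunit of the interferon-inducible PA28 ring, was measured by 10 copies of its probe on each array, with a median SD of 0.05 between copies. It gave 12.71, 12.79 and 12.92 in WT females and 12.31, 12.44 and 12.61 as lowest, median and highest in Ftx-/- females. No eye overlapped, and the change was -0.36 (SE 0.06, adjusted p = 0.00039). Its partner Psme2 changed by 0.14 and -0.02 on its 2 probes above the minimum (adjusted p = 0.093 and 0.89).

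Psme3, the subunit of the nuclear PA28 ring, rose the most of all members. Its log2 signal was 9.37, 9.39 and 10.01 in WT females, and 9.30, 11.06 and 11.50 as lowest, median and highest in Ftx-/- females. Of the 11 mutant eyes, 10 were above all WT female eyes, and Ftx-/- eye 3 was below them. The change was 1.27 (SE 0.35, adjusted p = 0.0091). Bases 25 to 54 of its probe (mm9, plus strand) are shown since they hold a simple repeat, with the TG runs in capitals.
Psme3 A_55_P2020572 (chr11:101184289-101184348): TGTGTGTGTGTGTtcGTGTGTGTGTGTtaa
Of 106 probes tested with at least 16 bases of TG or CA repeat, 68 (64.2%) were called higher and 24 lower in Ftx-/- females, with a median change of 1.02 in females and 0.68 in males. The longest run of the Psme3 probe is 13 bases, and of 272 probes with at least 8 bases 124 were higher (45.6%). The part of the repeat in the Psme3 value was not tested. Psme4, which encodes PA200, changed by -0.42 on probe A_55_P2457912 (SE 0.16, adjusted p = 0.043) and by -0.26 on A_55_P1976007 (SE 0.18, adjusted p = 0.26), and the call was lost in 17 of 27 alternative analyses. The inhibitor Psmf1 had a change of -0.14 (SE 0.09, adjusted p = 0.26), and Psmc3ip one of -0.18 (SE 0.08, adjusted p = 0.089).

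The female change moved with the base composition of the probes. Over the 51 members, the correlation across probes between the G and C content and the log2 fold change was -0.33 (Spearman's rho -0.45), and over all 14063 probes tested it was -0.49 (rho -0.56). Probes share eyes and arrays, so these are descriptions. In males the values were -0.16 over members and -0.19 over all probes. With the trend taken out of each eye, a choice made after the data were seen, 6 members were called higher and 4 lower (12.5% and 10.2% of all probes), and Psmc2 A_55_P2051874 and Psmc3 A_55_P2121961 turned to -0.01 and 0.10 (adjusted p = 0.85 and 0.096). Psmd6, Psme4 A_55_P2457912 and Psmd13 kept their direction and lost their calls, at -0.12, -0.33 and -0.02 (adjusted p = 0.091, 0.11 and 0.82). Psmb5 A_55_P2115068 kept its call at -0.26 (adjusted p = 0.0032), and so did Psme1, Psmd2, Psmd7, Psme3, Psma4 A_65_P09443, Psmd5 and Psma5.

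**Figure D3:**
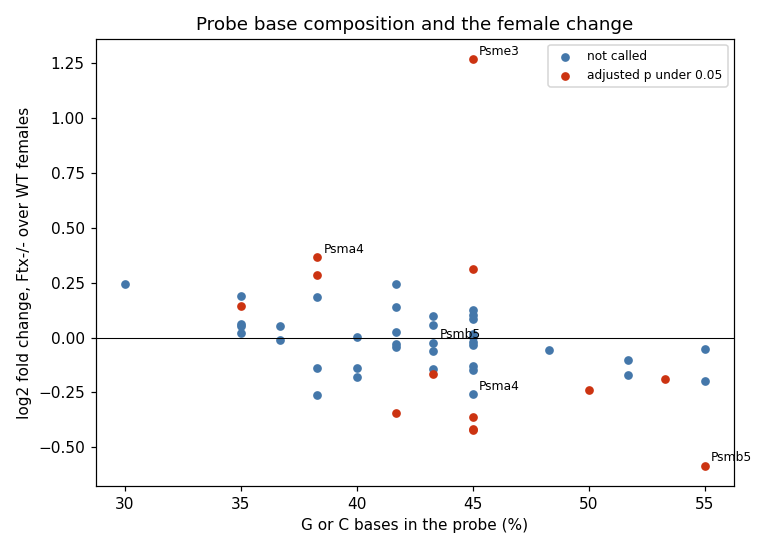
Share of G or C bases in each of the 51 proteasome probes (percent) against the log2 fold change of Ftx-/- over WT females, with called probes in red. Psmb5 has its called probe at 55% and its other probe at 43.3%, and Psme3 stands apart at 1.27.

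The immunoproteasome was compared with its constitutive counterparts at any signal. Psmb10 was well above the minimum: WT females averaged 4352 ± 561 (SD, n = 3) in normalized signal, with 4041 ± 314 (SD, n = 11) for Ftx-/- females. Male eyes had 4119 ± 178 without and 3807 ± 421 with the mutation (SD, n = 3 each). Its change was -0.10 in females (adjusted p = 0.35), and the groups overlapped. Psmb8 was low, at 5.12, 6.05 and 6.42 on the log2 scale in WT females and from 5.16 to 6.11 in Ftx-/- females, and Psmb9 (A_51_P369803) was at 5.68, 6.09 and 6.70 and from 5.49 to 6.31. Psmb8 was well above background on 28 of 31 arrays and Psmb9 on 30. In a fit over all 55681 probes without a minimum, none of the 4 immunoproteasome probes was called in females, and Psmb8 and Psmb9 changed by -0.24 and -0.29 (adjusted p = 0.54 and 0.36). A second Psmb9 probe was well above background on 2 of 31 arrays, and the thymus subunit Psmb11 on 7.

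The log2 difference between each immunoproteasome gene and its counterpart was then set against WT, which shows unequal change within an array and not a level between genes. In females the difference moved by -0.22 for Psmb8 against the brighter Psmb5 probe (A_55_P2144850), -0.32 for Psmb9 against Psmb6 and -0.12 for Psmb10 against Psmb7. None passed a two-sided exact permutation test adjusted over 6 comparisons (adjusted p = 0.57, 0.40 and 0.57). In males the shifts were 0.13, -0.18 and -0.41 (adjusted p = 0.80, 0.40 and 0.40), and 3 eyes against 3 cannot give an unadjusted exact p below 0.10. Against the other Psmb5 probe, A_55_P2115068, a choice made after the data were seen, the Psmb8 difference moved the opposite way in females (0.34) and further up in males (0.39). Other scalings also moved these values: at the 75th percentile of each array, the Psmb8 and Psmb9 shifts were -0.54 and -0.59 in females and -0.18 and -0.51 in males. Among macrophage markers, 1 of 7 above the minimum was called in females, Cx3cr1 at 0.52, where 17.3% of all probes rose and 17.8% fell. The summed signal of the 15 macrophage markers on the array was 9312 to 10220 in WT females and 8404 to 11830 in Ftx-/- females. Their part in the immunoproteasome values was not tested. B2m, the light chain of class I molecules, rose by 0.75 (limma adjusted p = 0.00014). Of the 7 antigen presentation genes above the minimum, B2m alone was called higher and H2-K1 alone lower, by 0.37, against the same shares of all probes.

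**Figure D4:**
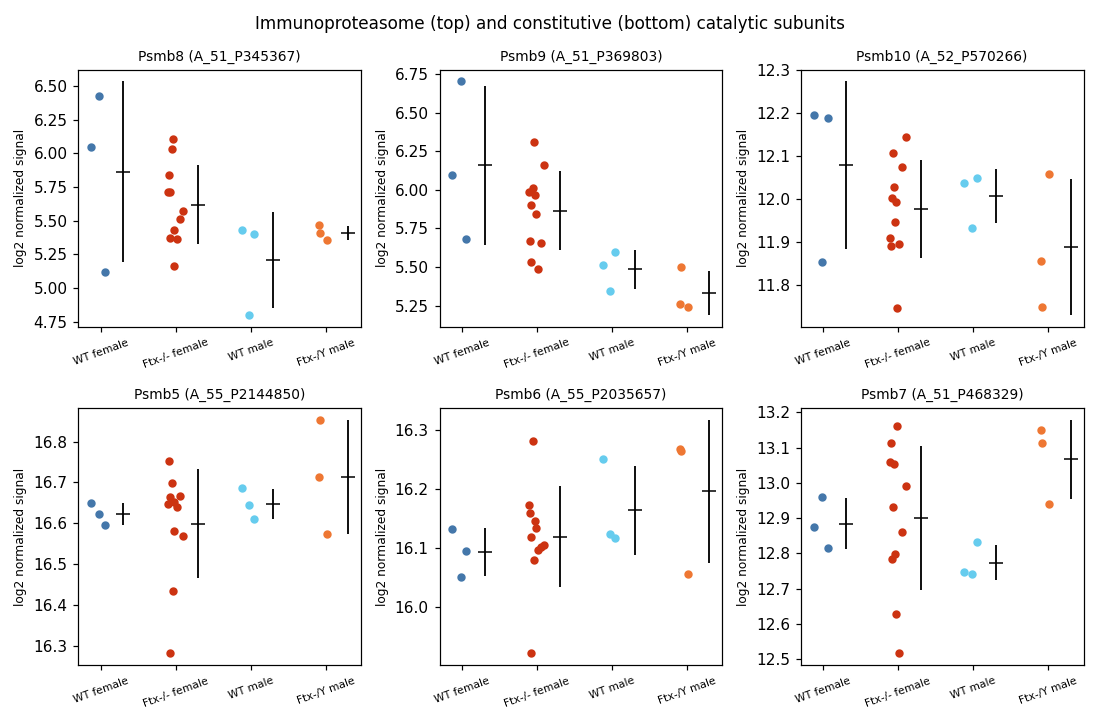
Log2 normalized signal of the immunoproteasome subunits Psmb8, Psmb9 and Psmb10 (top) and of Psmb5 (probe A_55_P2144850 alone), Psmb6 and Psmb7 (bottom) in each eye, by group, with the mean and SD as a bar. Each panel has its own axis, and WT and mutant eyes overlap in every female comparison shown.

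In males no proteasome probe was called at an adjusted p under 0.05, as were only 0.0213% of all probes. At an unadjusted p under 0.05, 7 of 51 members passed (13.7%), against 11.8% of all probes. The member count fell to 1 without WT male 1, 2 without WT male 2, 3 without Ftx-/Y male 2, 1 without Ftx-/Y male 3 and 1 with the slide as a fixed term. Over all probes these fits gave 874, 711, 942, 948 and 810, against 1653 in the main fit. Without WT male 3 it was 8 members and 2651 of all probes, and without Ftx-/Y male 1 it was 6 and 1891. The count thus rests on single eyes, for members and for all probes. With all eyes, the higher members were Psme3 (0.94), Psmd14 (0.39), Psmb7 (0.29), Psmd9 on probe A_51_P251587 (0.29) and Psmf1 (0.26), and the lower ones Psmc5 (-0.23) and Psmb4 (-0.21). The other Psmd9 probe, A_55_P1985758, changed by -0.11 (unadjusted p = 0.34). Psmd14 gave 11.10, 11.15 and 11.57 in WT males and 11.62, 11.66 and 11.71 in Ftx-/Y males. Psmb7 gave 12.74, 12.75 and 12.83 and then 12.94, 13.11 and 13.15. The groups did not overlap for either gene. Psme3 gave 9.01, 9.27 and 10.07 in WT males and 10.16, 10.41 and 10.61 in Ftx-/Y males, and the mutant eye on the slide of the WT eyes lay 1.16 above their mean. Erythroid markers moved with the male groups: all 7 above the minimum had an unadjusted p under 0.05, and their summed signal was 207100 to 262600 in WT males and 306000 to 655800 in Ftx-/Y males. Their part in the male values was not tested.

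The female and male changes were compared by their difference. No member differed at an adjusted p under 0.05, as did none of the 14063 probes by limma. At an unadjusted p under 0.05, 5 members passed (9.8%), against 13.8% of all probes. With the slide as a fixed term, 10 of 51 members and 1835 of 14063 probes passed. The female minus the male change was -0.43 for Psmd2 (unadjusted p from limma = 0.0093), -0.40 for Psmf1 (p = 0.016), -0.39 for Psmb5 A_55_P2115068 (p = 0.0051), -0.38 for Psme1 (p = 0.0013) and 0.20 for Psmc2 A_55_P2051874 (p = 0.011). Psme1 changed by -0.36 in females and 0.02 in males.

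The WT sexes were compared with the same WT eyes as above. At an unadjusted p under 0.05, WT females were above WT males in Psmf1 (0.32), Psmd2 (0.24), Psme1 (0.23) and Psmb5 A_55_P2115068 (0.22), and below them in Psma4 A_65_P09443 (-0.28) and Psma3 (-0.22). These 6 members are 11.8% of the 51, against 10.3% of all probes, and none passed an adjusted p. The member count fell to 1 without WT male 3, 2 without WT female 1 and 4 without WT male 1. Over all probes these fits gave 890, 634 and 1180, against 1442 in the main fit. Without WT female 2, WT female 4 or WT male 2 it was 5, 7 and 6 members, with 1749, 1304 and 1715 over all probes. For Psme1, WT males gave 12.43, 12.64 and 12.67 and Ftx-/Y males 12.51, 12.62 and 12.67, between the WT and Ftx-/- females in mean.

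Ftx-/- females and Ftx-/Y males had no member called at an adjusted p under 0.05, against 2.02% of all probes. At an unadjusted p under 0.05, 6 members passed (11.8%, against 16.6% of all probes), with Psme4 lower in females on both probes (-0.51 and -0.33), Psmb5 A_55_P2115068, Psmc3 A_55_P2103429 and Psme1 lower (-0.17, -0.16 and -0.16), and Psmc2 A_55_P2051874 higher (0.13). The member count was 10 without Ftx-/Y male 1, 1 without Ftx-/Y male 2 and 2 without Ftx-/Y male 3. Over all 14063 probes these fits gave 2360, 1268 and 1444, against 2338 in the main fit.

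The Ftx-/- eyes were also compared slide by slide. All 13 called members lay on the side of their call on slides 2, 3 and 4, and of all 51 members 30 had the 3 slides on the same side of WT. The calls rest on these same eyes, and each slide is set against the same 3 WT females. The median change over the 51 members was 0.08 on slide 2 (3 eyes), -0.13 on slide 3 (4 eyes) and 0.00 on slide 4 (4 eyes), and over all probes 0.01, -0.03 and 0.01. Psmb5 A_55_P2115068 changed by -0.54, -0.67 and -0.53 on these slides, and Psme1 by -0.29, -0.43 and -0.35. With the eyes of slide 3 alone, 20 members were called lower and 6 higher, where 27.3% of all probes were lower and 22.2% higher. With those of slide 2 alone, 4 were lower and 11 higher, where 17.5% of all probes were lower and 17.6% higher. In males, the change of Psmb5 A_55_P2115068 was -0.23 in the mutant eye on the WT slide and -0.17 in the eyes on slide 2. That male change did not pass (-0.19, unadjusted p = 0.06), and WT male 3, at 13.91, lay below all Ftx-/Y eyes, at 13.97, 13.99 and 14.05.

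**Figure D5:**
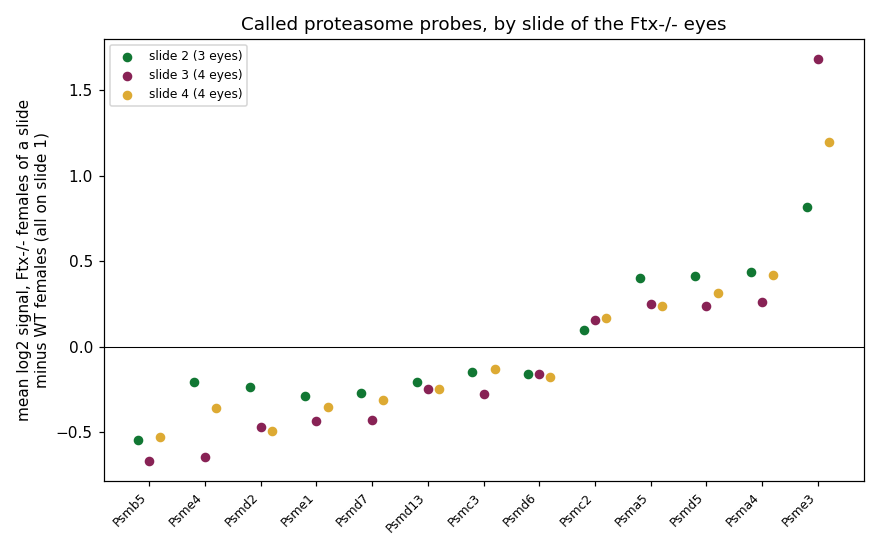
Mean log2 signal of the Ftx-/- females of slide 2, 3 or 4 minus the WT females, for the 13 called proteasome probes. For each probe the 3 points lie on the same side of 0, as at -0.54, -0.67 and -0.53 for Psmb5 on slides 2, 3 and 4.

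Genes that work with the proteasome were taken from fixed lists, and each count stands against the 17.3% of all probes that rose and the 17.8% that fell. Of the 5 chaperones of the 20S core, Psmg3 fell by 0.27 (adjusted p = 0.037) and 4 did not pass, Pomp among them at 0.08. Of 12 proteasome-bound partners above the minimum, the shuttle factor Ubqln2, the ligase Ube3c and Zfand5 rose by 0.4, 0.21 and 0.16, and none fell. None of 5 ubiquitin genes passed, with changes from -0.21 for Ubb to 0.10 for Rps27a. Of 9 regulators of proteasome gene expression, Nfya, Nfyb and Nfe2l2 rose by 0.59, 0.44 and 0.17, and Keap1 and Nfyc fell by 0.52 and 0.27. Nfe2l1, which drives proteasome genes when proteasome activity falls, lay under the minimum, and in the fit without a minimum it changed by -0.44 (adjusted p = 0.015), from a mean signal of 409 in WT females to 301 in Ftx-/- females. Among cell type markers called in females, 9 of 12 lens markers fell and none rose, 2 of 10 retinal progenitor markers rose, 2 of 10 retinal neuron markers rose and 4 fell, 2 of 7 erythroid markers and 1 of 3 pigment markers rose, and 0 of 4 endothelium markers passed. In eye tissue measured in bulk, fewer cells of a type and less RNA per cell cannot be told apart, and the part of these cell types in the proteasome values was not tested.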

How the data were processed

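The authors deposited background-subtracted 1-colour intensity values made with Agilent Feature Extraction, whose headers give version 11.0.1.1, with no normalization between arrays. The deposited series table matched these intensity values to within 0.498%. Probe positions are those of mm9. Here 31 arrays (62976 spots, 3671 of them controls) were normalized by the quantile-spline method that the methods name, written out in R 4.3.3. Flagged spots were left out, repeated spots and then repeat arrays of the same eye were averaged, and probes with a mean signal above 500 over the 6 WT eyes were kept. Groups were compared with limma 3.58.1 (trend) over 20 eyes, with Benjamini-Hochberg adjustment over 14063 probes. Data were simulated on 14042 probes in the design of Ftx-/- against WT females, with 50 changed per size and direction. Changes of 0.6 (log2) were found for 82% of rises and 78% of falls, and changes of 0.3 for 30% and 32%. All other probes were left unchanged and no slide effect was simulated. In the real comparison 17.3% of probes rose and 17.8% fell, so a weaker unadjusted p passed the adjustment there. The simulated shares therefore do not give the recovery in these data. The number of arrays limits the precision. The labels do not say which eyes share a litter, so p-values measure the spread between these eyes.

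Members and lists were chosen with earlier results of these data known. Every catalytic subunit, activator, the inhibitor and the X-linked member were named, with the 8 largest rises and 8 largest falls called in females, the 3 largest each way in other comparisons, and genes whose probes differed in direction. Others were named after their values were seen. Alternatives covered normalization, minimum, arrays, left-out eyes, slide and replicate blocks, and the methods' t-test.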

Additional observations from a re-analysis of the deposited data

How the results depend on the processing

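The 5 rises and 8 falls called in females depended most on the slide. With the slide as a fixed block 0 rose and 0 fell, where of all probes 1 rose and 10 fell. With it as a random block 4 rose and 4 fell, where 8.14% of all probes rose and 9.46% fell. The replicate number as a block (replicate block) gave 3 rises and 4 falls, where 10.6% of all probes rose and 12.6% fell, and a median WT sex difference of 0.055. The labels do not say what the numbers mean. Same-numbered eyes had correlations of their deviations from -0.23 to 0.21, both ends between WT females and WT males. With so few eyes a group, these values cannot tell whether same-numbered eyes were paired. The series table, which is not normalized and moves the median of all probes to 0.25 in females, gave 0 falls, where 1.25% of all probes fell. Its medians over members were 0.23 (females), -0.10 (males), -0.12 (WT sexes), 0.16 (mutant sexes) and 0.31 (female minus male change). It turned Psmd13, Psmc3 A_55_P2121961 and Psmd6 to 0.050, 0.077 and 0.10. The methods' t-test gave 5 falls after adjustment, where 10.8% of all probes fell. It gave 1 call between mutant sexes, where 3.02% of all probes were higher and 3.93% lower. With the fold limits of 1.2 and 0.8 and its unadjusted p it gave 4 falls, 3 calls in males, 1 between WT sexes and 2 between mutant sexes. The same limits with limma gave 5 falls, with 1792 falls over the 14063 probes. The 75th percentile moved the WT sex median to 0.053, and the slide as a random block moved the male median to -0.026. Psmb10 minus Psmb7 in males was -0.11 with the slide as a fixed block. Leaving out 1 WT or Ftx-/Y eye gave 3 to 6 rises and 4 to 8 falls in females, the lowest without WT female 2 and WT female 1. Over all probes, 12.8% rose and 12.5% fell without WT female 2, and 11.5% and 11% without WT female 1. In males these fits gave 0 to 1 calls. The 1 was without WT male 3, where 192 of 14052 probes were called higher and 177 lower. Of the alternatives chosen after the data were seen, the GC trend taken out gave 4 falls, where 10.2% of all probes fell. It put Psmc2 A_55_P2051874 at -0.013 and Psmc3 A_55_P2121961 at 0.10. Eyes of slide 2, 3 or 4 alone gave 11, 6 and 6 rises and 4, 20 and 5 falls, with Psmb7 at -0.20 on slide 3. Over all probes these slides gave 17.6%, 22.2% and 14.6% rises and 17.5%, 27.3% and 14.4% falls. The cause was not tested for any of these. The alternatives counted next are not independent of each other. Leaving out a male eye or changing the minimum does not alter the size of a female change, and all alternatives use WT females of slide 1. Psmb5 A_55_P2115068 kept its direction in all 27 alternatives, from -0.67 to -0.26, and its call in 25 (as did Psma5), Psma4 A_65_P09443 and Psmd5 theirs in 26 each, and Psme1 in 24, while Psmd2 kept its call in 23, Psme3 and Psmd7 in 22, Psmd13 in 20, Psmc2 and Psmc3 in 18, Psmd6 in 14 and Psme4 in 10. Over the alternatives the shift of Psmb8 minus Psmb5 ran from -0.58 to 0.34 in females and from -0.18 to 0.39 in males, with 4 of 18 of the opposite sign in each; Psmb9 minus Psmb6 ran from -0.59 to -0.03 in females and -0.51 to -0.03 in males, and Psmb10 minus Psmb7 from -0.27 to 0.12 and -0.56 to -0.11. None of these passed where tested.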

Other observations

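The SD over the 11 Ftx-/- females had a median of 0.12 on the log2 scale over members and 0.15 over all probes tested, and 36 of 51 members were below the latter. Most members are bright: at a mean log2 signal of at least 12, the medians were 0.11 over 35 members and 0.14 over 5572 probes, of which 28.6% and 33.8% were called in females. The 19S subunit Psmd1 had the lowest SD of the members (0.04) and Psme3 the highest (0.67). The SD between both arrays of an eye had a median of 0.06 over members. A Psme2 probe under the minimum, A_55_P2025612, had an SD of 1.17 over Ftx-/- eyes and 0.35 between arrays of an eye.

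The promoters of 37 proteasome genes were found in RefSeq (GRCm38.p6, from 250 bases before to 50 after the start). The letters TGACNNNGC, the core of the element that Nfe2l1 and Nfe2l2 bind, were in 6 of 40 promoters (15%) on either strand and in 12.4% of all promoters. The letters CCAAT, which NF-Y binds, were in 14 of 40 (35%) and in 37.4% of all.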
